A study of Mus musculus with 96 samples.

Results

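The genes examined were Ctcf and 9 genes of the cohesin complex and of its loading and release, namely Rad21, Smc1a, Smc3, Stag1, Stag2, Nipbl, Pds5a, Pds5b and Wapl. They were chosen by gene symbol for their known roles, by a rule that uses no measured value, though earlier results of these data were known at the time, and all 10 were found among the 24057 genes listed and among the 11980 genes tested. Their RNA was measured by single-cell RNA-seq in EL4 cells, a T lymphoma line of the C57BL/6 mouse. WT cells carried a short hairpin RNA (shRNA) against luciferase (cultures shLuc #1 and shLuc #2), CTCF-KD cells carried one against Ctcf (shCTCF #1 and shCTCF #2), and all were virally infected cells of the one line. shLuc #1 and shCTCF #1 formed the initial experiment (experiment 1) and the remaining cultures the second knockdown (experiment 2). The study's methods name a pair of hairpins against Ctcf without saying which culture carried which, so the CTCF-KD cultures may differ in hairpin. GFP-positive cells were sorted after infection to check the knockdown by RT-qPCR and Western blotting, each culture was loaded on its own integrated fluidics circuit of the Fluidigm C1 system, and 24 cells were chosen per circuit for their quality.

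CTCF is a zinc finger protein that binds DNA at insulators and at the anchors of chromatin loops. Cohesin is a ring of SMC1A, SMC3 and RAD21 with STAG1 or STAG2 bound to it; it holds sister chromatids together and extrudes loops that stop at CTCF bound in the right orientation. NIPBL loads the ring onto chromatin and drives extrusion, whereas WAPL, helped by PDS5A and PDS5B, takes it off.

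Depth was recovered from the deposited values as whole reads. After 1 cell of shLuc #2 with fewer than 3000 genes was left out, 24 and 23 WT cells and 24 and 24 CTCF-KD cells remained in cultures 1 and 2, and the median cell held 131098 (shCTCF #2) to 247586 (shLuc #1) reads. The median number of genes above 0 per cell was 4771 and 4635 in the WT cultures against 6172.5 and 5656 in the CTCF-KD cultures, so a larger share of cells with a read was the rule over all genes. The 10 T lymphocyte markers examined summed to 8767 to 8797 TPM (the transcript share of a cell, a unit per gene length) in WT and 6347 to 6397 TPM in CTCF-KD, whereas the 4 stromal or epithelial markers summed to at most 1.44 TPM. Of the 4 myeloid markers, Cd68 stood at 27.6 to 52.01 TPM, Lyz2 at 0 and Csf1r on 0 to 2 reads per culture. The cells of a culture are not replicates of its condition, so each culture counted as 1 sample, and 2 cultures against 2 cannot reach an exact permutation p below 0.333.

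Upstream sequences from RefSeq (GRCm38.p6, 250 bases before the annotated start) could be matched for 7 of the 10 genes. RefSeq and GENCODE starts can differ. The windows of Pds5a and Pds5b run in part past the GENCODE start into the gene. The Stag1 window lies inside the span that GENCODE gives the gene, downstream of its first start (100597798). Shown are that of Ctcf, the targeted gene, and those of Smc3, Stag1 and Wapl, which lay at least 2-fold higher in the second culture of either condition (described further on). They are written 5′ to 3′ on the strand of the gene, with capitals marking matches to CCAAT (the box bound by NF-Y), TTTCCCGC or TTTGGCGC (E2F-type), CCGGAAG (ETS-type), CGCNTGCG (the core of NRF1 sites) or AGGGGGC (a frequent core of CTCF sites) on either strand.
Ctcf, chr8:105636288-105636537, plus strand: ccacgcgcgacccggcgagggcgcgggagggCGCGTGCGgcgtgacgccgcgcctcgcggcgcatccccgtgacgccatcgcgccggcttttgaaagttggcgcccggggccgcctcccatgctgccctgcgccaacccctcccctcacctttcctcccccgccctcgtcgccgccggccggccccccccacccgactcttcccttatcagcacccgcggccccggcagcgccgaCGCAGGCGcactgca
Smc3, chr19:53600146-53600395, plus strand: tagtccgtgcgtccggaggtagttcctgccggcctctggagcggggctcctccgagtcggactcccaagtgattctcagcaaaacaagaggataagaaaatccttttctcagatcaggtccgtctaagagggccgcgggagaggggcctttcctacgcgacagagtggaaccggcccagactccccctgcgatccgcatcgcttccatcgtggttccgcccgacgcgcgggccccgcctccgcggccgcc
Stag1, chr9:100643198-100643447, plus strand: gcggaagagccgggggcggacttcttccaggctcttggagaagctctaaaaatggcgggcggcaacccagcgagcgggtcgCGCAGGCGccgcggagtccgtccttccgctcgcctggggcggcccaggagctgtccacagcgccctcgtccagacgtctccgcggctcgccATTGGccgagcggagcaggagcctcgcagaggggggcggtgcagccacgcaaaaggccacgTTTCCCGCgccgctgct
Wapl, chr14:34673678-34673927, plus strand: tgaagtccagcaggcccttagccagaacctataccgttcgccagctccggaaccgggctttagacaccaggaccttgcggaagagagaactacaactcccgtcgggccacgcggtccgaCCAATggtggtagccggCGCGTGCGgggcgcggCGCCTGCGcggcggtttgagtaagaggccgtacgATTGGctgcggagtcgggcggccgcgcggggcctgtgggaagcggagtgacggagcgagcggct

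No letters of these motifs were found in the window of Smc3. Ctcf held CGCNTGCG from base -219 to -212 relative to the start and, on the minus strand, from -15 to -8. Stag1 held CCAAT on the minus strand from -78 to -74, TTTCCCGC from -17 to -10 and CGCNTGCG on the minus strand from -169 to -162. Wapl held CCAAT from -131 to -127 and, on the minus strand, from -64 to -60, with CGCNTGCG from -114 to -107 and from -98 to -91 between them. Over the 7 windows, CCAAT was found in 4 (Pds5b, Stag1, Wapl and Smc1a) against 33.8% of 32851 windows of the same length, and CGCNTGCG in 4 (Pds5b, Ctcf, Stag1 and Wapl) against 6.76%. The CCAAT match of Pds5b, from -66 to -62 on the minus strand, lies past the GENCODE start. In Pds5b, 2 matches to CGCNTGCG overlapped, from -169 to -162 and on the minus strand from -163 to -156, and the only match to AGGGGGC among the members lay there too, from -129 to -123 (9.43% of all windows). TTTGGCGC was found in Pds5a alone among them (0.417% of all windows), TTTCCCGC in Stag1 alone (0.895%) and CCGGAAG in none (6.91%). The median GC content of the 7 windows was 71.2%, against 52.4% over all windows. The motifs were chosen after the levels were known, and CGCNTGCG and AGGGGGC replaced longer forms of the NRF1 and CTCF motifs after the matches of those forms had been seen. The shorter forms match more windows, both among the members (CGCNTGCG) and over all genes, and the matches in Ctcf appeared only with the shorter form, so these counts are a description of letters alone.

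Ctcf (chromosome 8, 105636568 to 105682922, plus strand; GENCODE M21, GRCm38) was lower in the knockdown culture of experiment 1 and not in that of experiment 2. With the SD over its 24 or 23 cells, shLuc #1 averaged 60.3 ± 76.8 TPM and shLuc #2 37.1 ± 45.5 TPM. shCTCF #1 averaged 15.96 ± 27.4 TPM and shCTCF #2 44.9 ± 50.01 TPM, over 24 cells each. shCTCF #1 stood below all others at 26.5% of shLuc #1, whereas shCTCF #2 lay between the WT cultures at 121% of shLuc #2, so that the groups overlapped. The RNA level in these cells thus went against the label of the second knockdown culture (protein was not measured in these data), which is called the culture labelled shCTCF #2 from here on, and every direction over both experiments below is to be read beside that of experiment 1 alone.

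On log2(mean TPM + 1), the scale of all differences given here, where low genes show less than their true ratio, Ctcf differed by -1.85 in experiment 1 and 0.27 in experiment 2. Over the 4 cultures the difference was -0.79 ± 0.66 (SE, n = 2 cultures per condition), with an adjusted p of 0.815 by limma over 11980 genes and an exact two-sided permutation p of 0.667. Unless stated, the SE and adjusted p of each gene come from a fit by condition alone. In that fit any difference between the experiments counts as error. Among cells with a Ctcf read, the mean level was 76.2 and 50.2 TPM in shLuc #1 and #2, 23.9 TPM in shCTCF #1 and 53.9 TPM in the culture labelled shCTCF #2, in the same order as over all cells. Exons of Ctcf overlap those of Agrp on the other strand, which averaged at most 2.40 TPM in any culture, and their reads cannot be told apart where the counting ignores strand.

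**Figure D1:**
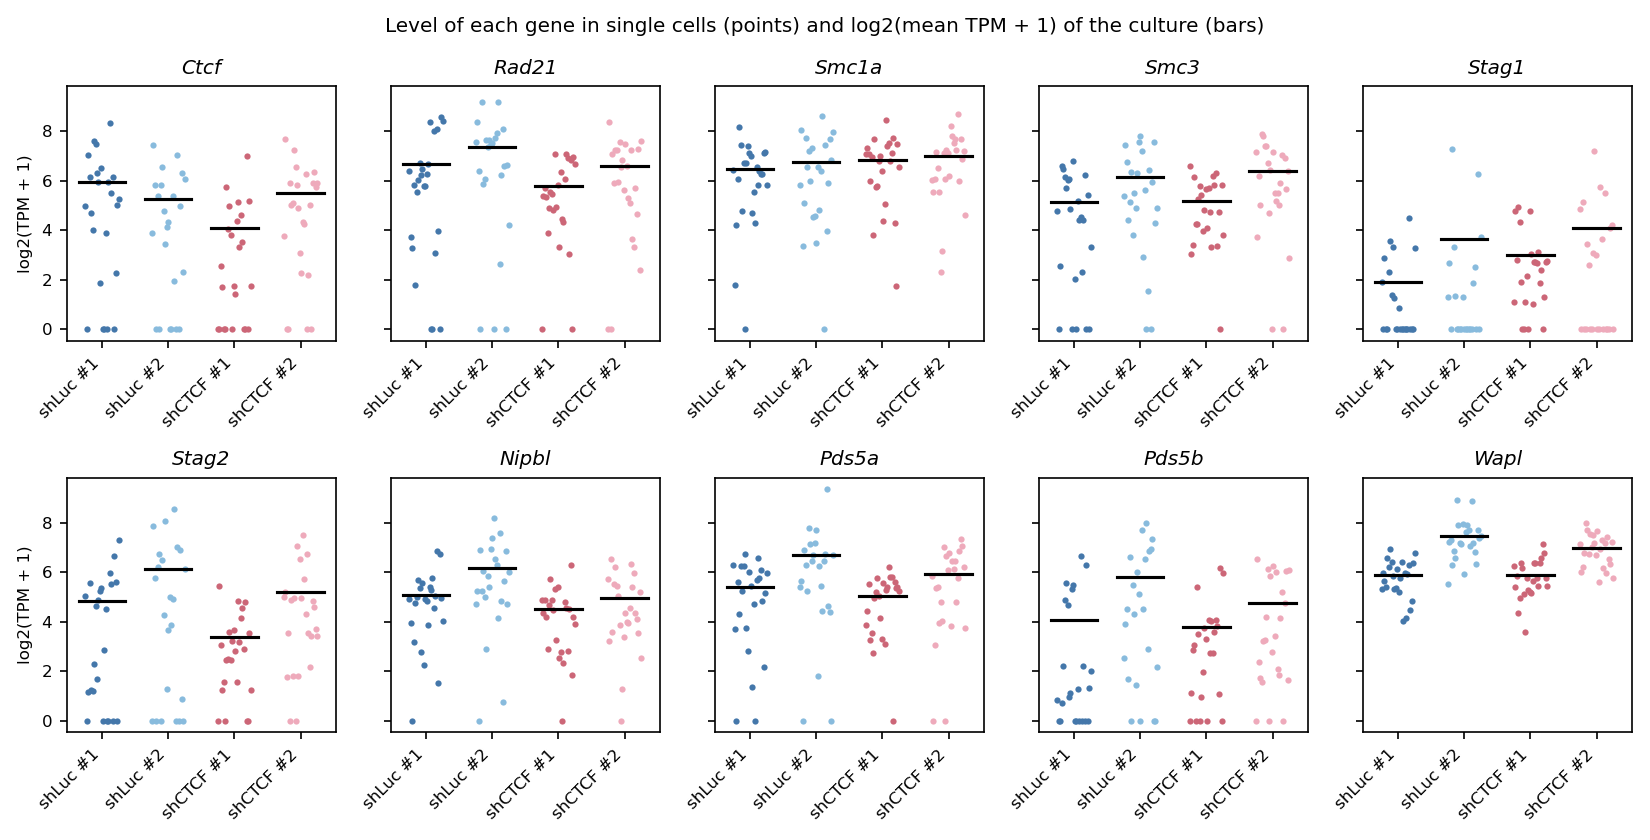
Level of each of the 10 genes as log2(TPM + 1) in every cell (points) of the 4 cultures, with log2(mean TPM + 1) of the culture as a black bar; WT cultures are blue and CTCF-KD cultures red or pink. Ctcf is lowest in shCTCF #1, and most cohesin genes sit higher in the second culture of a condition than in the first.

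The ring genes did not share a direction between the conditions. Rad21 (chromosome 15, 51962240 to 51991747, minus strand), the kleisin that closes the ring, averaged (with SD over cells here and below) 100.3 ± 118 TPM in shLuc #1, 165 ± 158 TPM in shLuc #2, 54.3 ± 44.2 TPM in shCTCF #1 and 94.5 ± 82.1 TPM in the culture labelled shCTCF #2. Both CTCF-KD cultures lay below both WT cultures, by a similar amount in each experiment (-0.87 and -0.79). The difference over the 4 cultures was -0.83 ± 0.47 (SE), with an adjusted p of 0.747 by limma, so it did not pass the test. A limma fit with the experiment added gave the same difference an SE of 0.28 and an adjusted p of 0.323, which did not pass either. With each cell given equal weight on the log scale, its direction held within each experiment (-0.17 and -0.48). The groups then overlapped, as the culture labelled shCTCF #2 (5.61) lay above shLuc #1 (5.21).

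Smc1a (X chromosome, 152016428 to 152062694, plus strand), one of the pair of ATPase arms, was the only gene of the 10 for which each CTCF-KD culture exceeded each WT culture. It averaged 87.8 ± 66.2 and 108 ± 101 TPM in WT against 115 ± 79.6 TPM in shCTCF #1 and 126 ± 94.3 TPM in the culture labelled shCTCF #2. The groups stood close together, and the difference of 0.30 ± 0.36 (SE) had an adjusted p of 0.880 by limma. Smc3 (chromosome 19, 53600398 to 53645833, plus strand), its partner arm, averaged 34.6 ± 34.3 and 70.3 ± 68.6 TPM in WT against 35.5 ± 26.3 TPM in shCTCF #1 and 84.004 ± 68.9 TPM in the culture labelled shCTCF #2. Here the first cultures of either condition were low and the second ones high, and the difference with the condition was 0.14 ± 0.61 (SE; adjusted p of 0.976 by limma).

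Of the interchangeable STAG subunits, Stag2 outweighed Stag1 by more in both WT cultures than in both CTCF-KD cultures. Stag2 (X chromosome, 42149317 to 42277185, plus strand) averaged 27.2 ± 37.4 and 69.8 ± 98.6 TPM in WT against 9.40 ± 10.7 TPM in shCTCF #1 and 35.5 ± 46.5 TPM in the culture labelled shCTCF #2. Stag1 (chromosome 9, 100597798 to 100959375, plus strand) averaged 2.79 ± 5.17 and 11.6 ± 34.6 TPM in WT against 7.03 ± 8.95 and 15.8 ± 31.7 TPM. Within each experiment Stag2 was lower (-1.44 and -0.96) and Stag1 higher (1.08 and 0.41) in the knockdown culture. With log2(TPM + 1) averaged over cells, Stag2 differed by -0.58 and -0.003, so close to 0 in experiment 2, and Stag1 by 1.20 and 0.81. On log2(mean TPM + 1) over the 4 cultures, both sets of values overlapped and neither passed the limma test. The differences were -1.20 ± 0.82 for Stag2 (SE; adjusted p of 0.779 by limma) and 0.75 ± 1.005 for Stag1 (adjusted p of 0.890).

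Mean TPM of Stag2 was 9.75 and 6.00 times that of Stag1 in shLuc #1 and shLuc #2, against 1.34 times in shCTCF #1 and 2.24 times in the culture labelled shCTCF #2. The ratio in either WT culture exceeded that in either CTCF-KD culture, and the log2 ratio differed by -2.14 (exact two-sided permutation p of 0.333, the smallest this test can give with 2 against 2). The pair was singled out after its values were seen, among 4 pairs of members tested, over which the adjusted p was 0.667. With the highest cell of each gene and culture left out the difference was -2.17, and in RPM (reads scaled to a common total) it was -2.34. Single cells weigh heavily on Stag1, whose highest cell held 57.1% of its summed TPM in shLuc #2 and 38.6% in the culture labelled shCTCF #2; without such cells Stag1 differed by 1.24 in experiment 1 and 0.84 in experiment 2. Of the other pairs tested, the ratio of Wapl to Nipbl was also apart between conditions (1.81 and 2.47 in WT against 2.71 and 4.22). Those of Pds5a to Pds5b (1.84 to 2.64) and Smc1a to Smc3 (1.503 to 3.23) overlapped. A further ratio, of Rad21 to Ctcf, was taken but not tested, and overlapped as well (1.66 and 4.44 in WT against 3.40 and 2.11).

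Nipbl (chromosome 15, 8290617 to 8444463, minus strand), the loader, averaged 32.5 ± 28.3 TPM in shLuc #1, 71.7 ± 69.4 TPM in shLuc #2, 21.6 ± 17.97 TPM in shCTCF #1 and 29.9 ± 25.8 TPM in the culture labelled shCTCF #2. Both CTCF-KD cultures were again below both WT cultures, by -0.57 in experiment 1 and -1.23 in experiment 2. Over the 4 cultures the difference was -0.90 ± 0.60 (SE; adjusted p of 0.775 by limma). Rad21 and Nipbl were the 2 members of 10 with this separation, against 16.9% of all genes tested, and Smc1a the 1 with the opposite one, against 19.9%, so neither count stood far from the background.

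The genes of release were lower or level in CTCF-KD, with overlapping groups. Pds5a (chromosome 5, 65605721 to 65698273, minus strand) averaged 41.4 ± 31.5 and 102 ± 135 TPM in WT against 31.8 ± 19.5 TPM in shCTCF #1 and 59.6 ± 46.7 TPM in the culture labelled shCTCF #2. Its homologue Pds5b (chromosome 5, 150673739 to 150810690, plus strand) averaged 15.7 ± 27.4 and 55.5 ± 72.1 TPM against 12.8 ± 18.8 and 26.3 ± 30.2 TPM. For both, shLuc #2 was the highest culture by far and shCTCF #1 the lowest. The differences were -0.57 ± 0.61 for Pds5a and -0.66 ± 0.81 for Pds5b (SE; adjusted p of 0.866 and 0.882 by limma).

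Wapl (chromosome 14, 34673928 to 34747983, plus strand), the release factor itself, averaged 58.6 ± 28.1 TPM in shLuc #1 and 58.6 ± 30.01 TPM in shCTCF #1, but 177 ± 109.6 TPM in shLuc #2 and 126 ± 54.9 TPM in the culture labelled shCTCF #2. The cultures of experiment 1 had almost the same mean and those of experiment 2 were both higher. The difference with the condition was -0.24 ± 0.64 (SE; adjusted p of 0.957 by limma).

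Of the 10 genes, 6 were lower in the knockdown culture of both experiments (Rad21, Stag2, Nipbl, Pds5a, Pds5b and Wapl) against 26.7% of all genes tested, 3 were higher in both (Smc1a, Smc3 and Stag1) against 30.1%, and Ctcf went opposite ways. For Wapl the difference in experiment 1 was close to 0 (0.08 in RPM). On the mean of log2(TPM + 1) over cells, Pds5b was at 0.53 in experiment 1. Pds5a (-0.008) and Wapl (-0.009) in experiment 1 and Stag2 (-0.003) in experiment 2 were close to 0 on that scale. Rad21 and Nipbl stayed lower in both experiments there. No gene was 2-fold lower or higher in both experiments on log2(mean TPM + 1) (4.21% and 6.22% of all genes). The median difference over the 10 genes was -0.32 in experiment 1 and -0.63 in experiment 2, against 0.04 and 0.00 over all genes; over both experiments it was -0.61, and 0.15 without shLuc #2. In the limma fit by condition alone, none of the 10 passed at an adjusted p of 0.05 and none had an unadjusted p under 0.05. Over all genes this fit called 0 in either direction, with 574 genes higher (4.79%) and 338 lower (2.82%) at an unadjusted p under 0.05. With the experiment added to the limma fit, Rad21 alone of the 10 had an unadjusted p under 0.05 (0.0269, adjusted p of 0.323). Stag2 followed at 0.053 (adjusted p of 0.397). The SE of every member was smaller there than by condition alone. It was 0.28 against 0.47 for Rad21, 0.49 against 0.82 for Stag2, 0.37 against 0.61 for Smc3 and 0.30 against 0.64 for Wapl. The share of all genes under 0.05 for the condition in the fit with the experiment was not taken. Rad21 being alone under 0.05 there thus has no background to be read against.

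**Figure D2:**
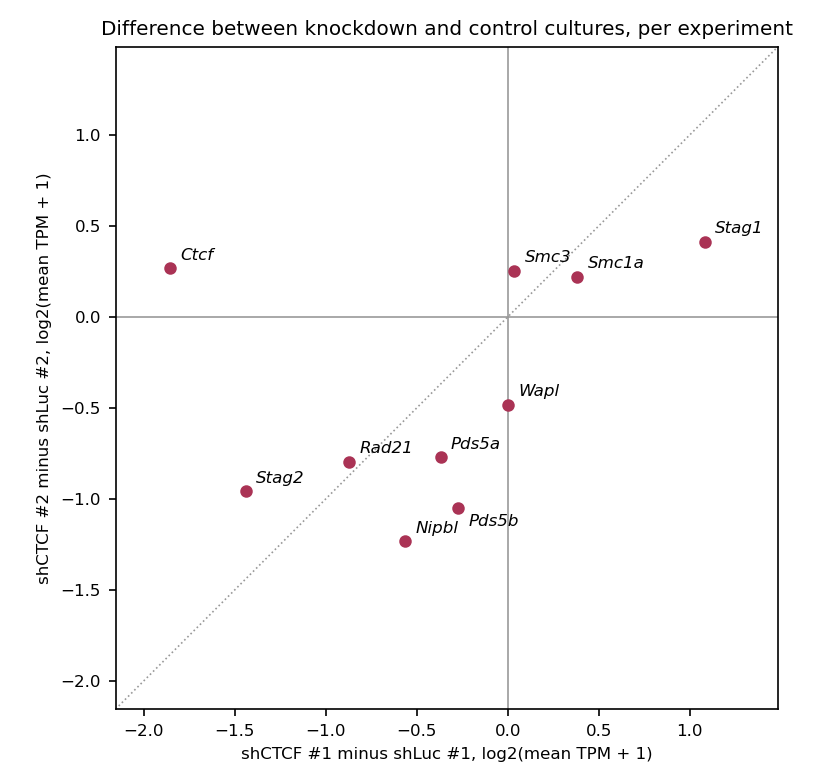
Difference between the knockdown and the control culture on log2(mean TPM + 1) in experiment 1 (horizontal) and experiment 2 (vertical) for the 10 genes, with the line of equal differences dotted. Ctcf stands apart at -1.85 and 0.27, 6 genes lie at or below 0 on both axes and 3 above 0 on both.

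The cohesin genes were higher in the second culture of each condition than in the first. shLuc #2 was above shLuc #1 for 9 of the 10 genes, against 56.2% of all genes tested, and by 2-fold or more for 7, against 23.6%. The culture labelled shCTCF #2 was above shCTCF #1 for all 10 (57.1% of all genes), by 2-fold or more for 5 (19.7%). Every cohesin gene was thus higher in the second culture of both conditions on this scale, 9 of the 10 genes against 37.1% of all genes, and Smc3, Stag1, Stag2 and Wapl were at least 2-fold higher in both, 4 of 10 against 7.14%. For Stag1 this rests on few cells: without its highest cells the difference in CTCF-KD was 0.66, and with log2(TPM + 1) averaged over cells it was 0.32 in WT and -0.07 in CTCF-KD. Smc3 lay just under 2-fold in WT without its highest cells (0.991) and in CTCF-KD on the mean of logs (0.887). Ctcf was the exception, at -0.69 between the WT cultures and 1.44 between the CTCF-KD cultures.

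Wapl showed this over the range of its cells. Its TPM ran from 15.3 over a median of 58.03 to 123 in shLuc #1 and from 44.8 over 148 to 476 in shLuc #2, and from 10.9 over 52.99 to 140.4 in shCTCF #1 and from 48.2 over 125 to 254 in the culture labelled shCTCF #2. The median cell of shLuc #2 thus lay above every cell of shLuc #1, and that of the culture labelled shCTCF #2 between the median and the highest cell of shCTCF #1. In a limma fit with condition and experiment, a comparison added after the values were seen, Wapl was higher in experiment 2 by 1.34 ± 0.30 (SE), with an unadjusted p of 0.00486 and an adjusted p of 0.225. Stag2 (1.57 ± 0.49), Smc3 (1.11 ± 0.37), Pds5a (1.09 ± 0.37) and Rad21 (0.75 ± 0.28) also had an unadjusted p under 0.05, making 5 of 10 genes against 8.53% of all genes in this direction, but none passed at an adjusted p of 0.05 (0.304 to 0.370 for these 4). The fit called 0 genes higher and 1 lower in experiment 2.

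The median difference between second and first culture was 1.20 in WT and 1.03 in CTCF-KD over the 10 genes, against 0.19 and 0.16 over all genes. In RPM these medians were 1.12 and 0.94 against 0.02 and 0.00, and with the highest cell of each gene left out 1.025 and 0.987 against 0.00 and 0.01. With log2(TPM + 1) averaged over cells they were 0.889 and 0.723 against 0.03 and -0.01. A rise was not particular to the 10 genes, though their medians were the highest among the lists compared here. On log2(mean TPM + 1), the medians in WT and CTCF-KD were 0.71 and 0.39 for other cohesin cycle genes. They were 0.41 and 0.68 for condensin and SMC5/6 genes and 1.10 and 0.16 for G1/S genes. Other architectural factors stood at -0.006 and 0.65, and G2/M genes at 0.23 and -0.41. The summed TPM of the 9 cohesin genes per cell averaged 401 ± 181 and 831 ± 313 in shLuc #1 and #2, against 346 ± 111 in shCTCF #1 and 598 ± 141 in the culture labelled shCTCF #2. Within each condition experiment 1 was the lower, and within each experiment the knockdown culture was the lower. Experiment, circuit and culture, and in CTCF-KD possibly the hairpin, coincide within a condition and cannot be told apart.

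Transcript length, examined after the values were seen, went along with these differences. The exons of the 10 genes covered 4232 (Rad21) to 19335 (Pds5a) bases, with a median of 7448, against 4280 over the 11597 tested genes with a length. Between the shortest 20% and the longest 20% of those genes, the median difference of second against first culture went from 0.00 to 0.35 in WT and from -0.02 to 0.35 in CTCF-KD, and the share of genes higher in the second culture of both conditions from 27.6% to 45.3%. The corresponding medians of knockdown against control were 0.14 and -0.13 in experiment 1 and 0.04 and -0.10 in experiment 2, and the share lower in both experiments was 22.8% and 34.4%. The 10 genes lay beyond the longest 20% in both (medians of 1.20 and 1.03, and 9 of 10, between cultures; medians of -0.32 and -0.63, and 6 of 10, between conditions), and the part of length in their values was not tested.

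**Figure D3:**
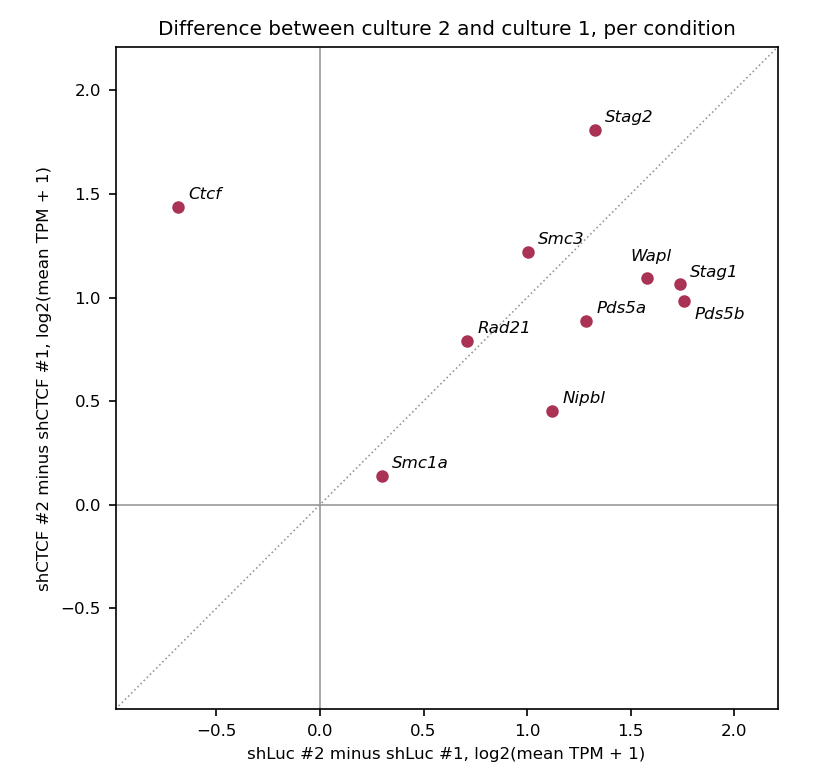
Difference between the second and the first culture on log2(mean TPM + 1) in WT (horizontal, shLuc #2 minus shLuc #1) and CTCF-KD (vertical, shCTCF #2 minus shCTCF #1) for the 10 genes. The 9 cohesin genes lie above 0 on both axes, and Ctcf alone is below 0 in WT.

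By level, Smc1a, Rad21 and Wapl held the first ranks in shLuc #2 and both CTCF-KD cultures, and Stag1 was the lowest gene in all 4. Ctcf ranked 3 of 10 in shLuc #1, where it stood above Wapl, and 9, 7 and 6 of 10 in shLuc #2, shCTCF #1 and the culture labelled shCTCF #2. Neighbours in these orders differed by less than the SD over cells of either gene in 34 of 36 pairs. The exceptions were Smc1a above Wapl in shCTCF #1 and Pds5b above Stag1 in shLuc #1, where the difference exceeded the SD of the lower gene.

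In the share of cells with at least 1 read, the knockdown cultures stood higher for Rad21 and Stag2, whose mean level was lower in both experiments. For Stag1 the share and the mean level were both higher in the knockdown culture of each experiment. Stag1 was detected in 41.7% of cells in shLuc #1 (exact Clopper-Pearson 95% interval 22.1% to 63.4%), 43.5% in shLuc #2 (23.2% to 65.5%), 83.3% in shCTCF #1 (62.6% to 95.3%) and 50.0% in the culture labelled shCTCF #2 (29.1% to 70.9%), where intervals cover counting error only. shCTCF #1 had the highest share, and its interval overlapped those of the other cultures. Stag2 was detected in 18 of 24 and 17 of 23 WT cells against 20 of 24 and 22 of 24 CTCF-KD cells, although its mean level was lower in the knockdown culture of both experiments. Among the cells with a Stag2 read, its mean was 36.3 and 94.4 TPM in WT against 11.3 and 38.7 TPM in CTCF-KD, lower in the knockdown culture of each experiment.

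Cells with reads of both Stag1 and Stag2 numbered 8 of 24 and 7 of 23 in shLuc #1 and #2, against 17 of 24 in shCTCF #1 and 12 of 24 in the culture labelled shCTCF #2. Both CTCF-KD cultures held more such cells than either WT culture. The median cell also held more genes in both CTCF-KD cultures than in either WT culture. No share over other gene pairs was taken, so this count is a description alone. Smc1a was found in all but 1 cell of each WT culture and in every cell of both CTCF-KD cultures, and Wapl in every cell of all 4. Nipbl missed 1 cell in each culture, and Ctcf was detected in 79.2%, 73.9%, 66.7% and 83.3% of cells, with overlapping groups.

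Both CTCF-KD cultures exceeded both WT cultures in the share of cells for 5 of the 10 genes (Rad21, Smc1a, Smc3, Stag1 and Stag2), against 36.2% of all genes tested, and none had both below (5.96%). With each cell thinned to 80000 reads, for which 1 cell of the culture labelled shCTCF #2 was too shallow, Pds5a joined them and 6 of 10 did so, against 46.4% of all genes, with none below (6.32%). Thinned, Stag1 stood at 29.3% and 30.3% of cells in WT against 62.2% and 46.5% in CTCF-KD, and Stag2 at 62.9% and 67.3% against 69.7% and 83.8%. The median difference over the 10 genes was 4.35 percentage points unthinned and 4.73 thinned, against 5.98 and 5.91 over all genes. It was 10.8 and 11.5 over the 5831 genes whose mean level lay within the range of the members, so the median of the members was below both. Wapl (100% in WT), Smc1a and Nipbl (both 95.7% as the mean of the WT cultures) had little room to rise. The 5831 genes were picked by that range alone and not matched to the members. None passed the limma test on the arcsine scale. Unthinned, Smc1a had the lowest adjusted p by limma, 0.117, and was the 1 member of 10 with an unadjusted p under 0.05 (0.006). Over all genes the limma test called 0, but 2112 genes were higher (17.6%) and 231 lower (1.93%) at that level. For Smc1a this rested on 1 cell without a read in each WT culture. Thinned to 80000 reads, its adjusted p by limma was 0.344, and Stag1 had the lowest (0.177).

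**Figure D4:**
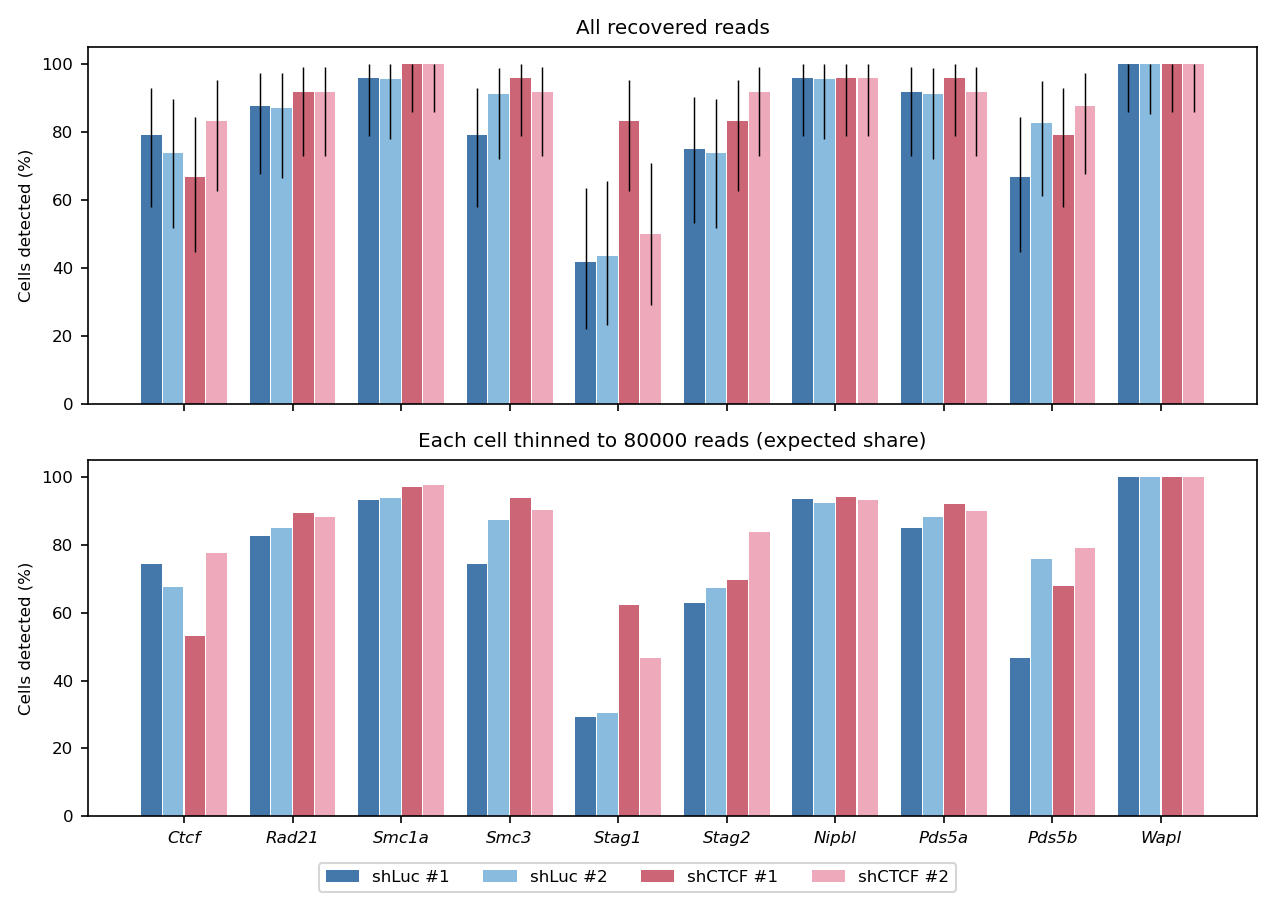
Share of cells (%) with at least 1 read of each of the 10 genes in the 4 cultures, with all recovered reads and exact 95% binomial intervals as lines (upper panel) and after thinning each cell to 80000 reads (lower panel). Stag1 is at 41.7% and 43.5% in WT, at 83.3% in shCTCF #1 and at 50.0% in shCTCF #2, and Wapl is at 100% throughout.

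Over the cells of a culture, Smc3 and Rad21 had the highest mean correlation with Ctcf among the cohesin genes. Spearman's correlation with Ctcf was 0.493, 0.419, 0.259 and 0.232 for Smc3 in shLuc #1 and #2, shCTCF #1 and the culture labelled shCTCF #2, and 0.247, 0.084, 0.486 and 0.285 for Rad21. Both were positive in all 4 cultures, of 23 or 24 cells each, with means of 0.351 and 0.276. Wapl was positive in all 4 as well but weaker (mean 0.144), and Pds5a in 3 (mean 0.242). The means of Stag2 (0.141), Smc1a (0.067), Pds5b (0.062), Stag1 (0.043) and Nipbl (-0.041) came from cultures of either sign.

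These values are descriptions, since the cells of a culture share a circuit and zeros are frequent. The median of the mean correlation was 0.141 over the 9 genes and 0.046 over the 3696 genes detected in at least 50% of the cells of every culture, whose 5th to 95th percentiles ran from -0.155 to 0.247. Among cells with a Ctcf read alone the median of the 9 genes was 0.010 and the order was another, with Wapl at 0.230, Pds5a at 0.176, Smc3 at 0.166 and Rad21 at 0.112. Given the number of genes detected per cell, Smc3 kept a partial rank correlation of 0.295 and Rad21 of 0.217.

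The 5 genes whose pattern over cells was most like that of Ctcf, by mean Spearman correlation over the 4 cultures, were Tyms (0.475), Cdca8 (0.457), Top2a (0.454), Stmn1 (0.449) and Lsm3 (0.447). Tyms makes thymidylate for DNA synthesis, and Top2a and Cdca8 act on chromosomes in mitosis. Ctcf itself correlated with the mean level of 20 G1/S genes (mean 0.431) and of 18 G2/M genes (0.395), in the same direction in all 4 cultures. Tyms is one of these G1/S genes and Top2a one of the G2/M genes, so their values enter both results. No background over all genes is given for the correlations with these lists. Among the other members Rad21 had the highest mean with the G2/M genes (0.410), followed by Pds5a (0.329) and Stag2 (0.303), and Pds5a the highest with the G1/S genes (0.336), followed by Smc3 (0.322), each positive in all 4 cultures, whereas Nipbl stood at -0.150 with the G1/S and -0.127 with the G2/M genes. Of the G1/S genes 15 of 20 were higher in the knockdown culture of both experiments, against 30.1% of all genes, and the part of the cell cycle in the values of the 10 genes was not tested.

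**Figure D5:**
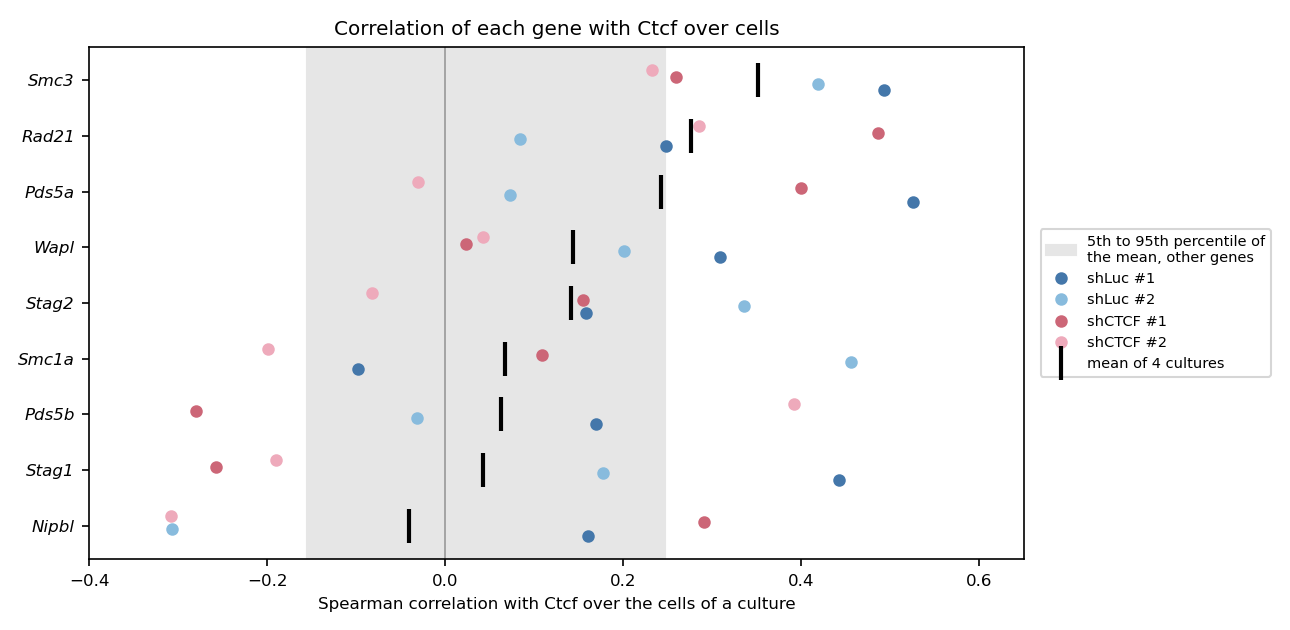
Spearman correlation with Ctcf over the cells of each culture (coloured points) and the mean of the 4 cultures (black bars) for the 9 cohesin genes, with the 5th to 95th percentile of that mean over 3696 genes as a grey band. Smc3 (mean 0.351) and Rad21 (0.276) lie above the band, and most other genes have points on both sides of 0.

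Among themselves the 10 genes were only loosely tied. Of the 45 pairs, 8 were positive in all 4 cultures and the median mean correlation was 0.067. The highest was that of Smc3 with Nipbl (0.377; 0.394, 0.305, 0.236 and 0.574 in the cultures in the order above), followed by Ctcf with Smc3 (0.351) and Smc1a with Stag2 (0.308), and the lowest that of Nipbl with Pds5b (-0.193). A cell held reads of 8.5, 8.0, 9.0 and 9.0 of the 10 genes at the median, and all 10 were seen in 6, 5, 10 and 8 cells.

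Cell-to-cell variation, taken as the coefficient of variation (CV) of log2(TPM + 1) with the cells of a condition pooled, was lowest for Wapl (0.171 in WT and 0.148 in CTCF-KD) and highest for Stag1 (1.48 and 0.8998). Ctcf was the only member with a higher CV in CTCF-KD (0.722 against 0.658), and the other 9 had a lower one, as did 81.5% of 7843 genes. The running median CV of genes with a mean like that of Ctcf was also higher in CTCF-KD (0.795 against 0.730 in WT). Ctcf lay below that median in both conditions. No member differed from the mean change by more than 1 SD in either direction, against 7.68% of genes above and 11.3% below. In experiment 1 alone Ctcf did (0.266 higher in CTCF-KD, beyond a limit of 0.173), and without the culture labelled shCTCF #2 1 member lay above (Ctcf) and 1 below (Stag1). The CV of Ctcf was 0.625, 0.704, 0.891 and 0.555 in shLuc #1 and #2, shCTCF #1 and the culture labelled shCTCF #2, highest where its level was lowest.

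Of 16 further genes of the cohesin cycle, 14 were tested and 0 passed the limma test in either direction; 2 were higher and 4 lower in the knockdown culture of both experiments, where over all genes, for this and the following lists, 30.1% were higher and 26.7% lower. The meiotic subunits Stag3 and Rad21l were at 0 in every cell. Ddx11, a helicase that aids cohesion, was at least 2-fold higher in both experiments, with 3.98 and 2.66 TPM in WT against 13.6 TPM in shCTCF #1 and 8.19 TPM in the culture labelled shCTCF #2, though its difference of 1.44 ± 0.88 (SE) had an adjusted p of 0.772 by limma. Its WT values rest on 45 and 27 reads. Of 14 condensin and SMC5/6 genes 0 passed the test, 4 were higher and 7 lower in both experiments. Ncapd3, a subunit of condensin II, was at least 2-fold lower in both, with 59.6 and 62.4 TPM in WT against 26.8 and 30.2 TPM (-1.07 ± 0.47, SE, adjusted p of 0.657 by limma), and the WT and CTCF-KD cultures were each close together. Ndnl2, a subunit of SMC5/6, was higher in both on 0 to 40 reads per culture. Of 10 other architectural factors 9 were tested, 0 passed, and 1 was higher and 4 lower in both. Among the cell cycle lists 0 genes passed the test, Ccne1 (9.62 and 18.7 TPM in WT against 92.6 and 62.2) and Cdt1 (7.75 and 25.6 against 57.2 and 63.9), both of G1/S, were at least 2-fold higher in both experiments, and of the 18 G2/M genes 2 were higher and 10 lower in both.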

How the data were processed

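Single EL4 cells were prepared on the Fluidigm C1 system with the SMARTer protocol. The authors aligned the reads to GRCm38 with STAR, kept unique hits, counted them per gene with HTSeq and deposited TPM for 24057 genes in 96 cells, so multiply mapping reads are lost and values are relative to the total of a cell. No molecular identifiers are described, so intervals cover counting error only.

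Samples were grouped by their titles. Cells with fewer than 3000 genes above 0 were left out (1 of 96). Whole reads were recovered from the deposited TPM as the common step of each gene with a factor per cell (all of 504605 values above 0 within 0.001 of a whole number, a procedure tested on simulated data); they gave depth (3232422 to 6192121 reads per culture), RPM and thinning to 80000 reads. The culture labelled shCTCF #2 was the shallowest, so its values are the least precise. Tested were 11980 genes, those whose log2(TPM + 1) exceeded 1 in 2 or more cells.

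Culture means, log2(mean TPM + 1), and arcsine square roots of the shares of cells were compared with limma 3.58.1 (R 4.3.3; empirical Bayes, with a trend for levels, tested on simulated data), with Benjamini-Hochberg adjustment over all genes at 0.05; single values used exact two-sided permutation tests (scipy 1.17.1). No count model was fitted, since the values are TPM. CV used 7843 genes with a mean log2(TPM + 1) above 1, with cultures pooled. Correlations were taken within cultures.

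The members were chosen by role and not by value, but they and the lists were chosen with earlier results of these data known. Named are the members, listed genes past the threshold or 2-fold apart in the same direction in both experiments, and the 5 genes most correlated with Ctcf. The culture number pairs the samples, as the study's methods place each number in one experiment. Deviations of same-numbered cultures from their condition means correlated at 0.18 over tested genes and at 0.27 over those with a mean log2(TPM + 1) above 1. Alternatives were the pseudocount, filter, scale, replicate block, each culture left out and detection limit. The comparisons of experiments, of gene ratios and by length and the motif search were added after the values were seen, and 2 of the 6 motifs were shortened after their first matches were seen. Exon lengths are unions of GENCODE M21 exons, matched by symbol for 96.8% of tested genes. Some marker genes examined are not reported here.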

Additional observations from a re-analysis of the deposited data

Results flagged for a closer look

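Ctcf, the targeted gene, stood out because its knockdown and control cultures lay in opposite order in the 2 experiments. The difference on log2(mean TPM + 1) was -1.85 in experiment 1 and 0.27 in experiment 2. With 1 culture per condition in each experiment, the difference between the experiments was not tested. It kept both signs in RPM (-1.82 and 0.19), with the highest cell of each culture left out (-2.04 and 0.28) and as a mean over cells of log2(TPM + 1) (-1.83 and 0.58). The other 9 genes did not go opposite ways, although for Wapl the difference in experiment 1 was -0.00095, close to 0.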

How the results depend on the processing

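Limits: 2 cultures per condition, 23 or 24 cells each, the label of shCTCF #2 at odds with its Ctcf level, and shallower reads in that culture. With the mean over cells of log2(TPM + 1), 44 genes were called higher and 2 lower, none of them a member, where 0 were called otherwise. With the replicate block the smallest adjusted p over all genes was 0.198 and no gene was called; among the 10 genes the adjusted p ran from 0.323 (Rad21) to 0.904 (Smc3), and the block changed no other call. Leaving out 1 culture moved the difference of Ctcf between -1.51 and -0.07, the median difference of the 10 genes between -1.11 and 0.15 (0.15 without shLuc #2), their median arcsine difference in detection between 0.050 and 0.118, the median correlation with Ctcf between 0.093 and 0.177, the median CV difference between -0.113 and -0.062, and the counts of genes with higher and lower CV between 549 and 651 and between 808 and 907. Among single genes, leaving out 1 culture turned the direction in level for Smc3 (-0.36 without shLuc #1 and -0.47 without shCTCF #2; range -0.47 to 0.75), Stag1 (-0.12 without shLuc #1; -0.12 to 1.62), Pds5a (0.074 without shLuc #2; -1.21 to 0.074), Pds5b (0.22 without shLuc #2; -1.54 to 0.22) and Wapl (0.55 without shLuc #2 and 0.31 without shCTCF #1; -1.03 to 0.55). In experiment 1, Pds5b turned to 0.53 with the mean of logs and Wapl to 0.08 in RPM. In detection (arcsine scale), Ctcf turned to 0.018 without shLuc #1 and 0.084 without shCTCF #1 (range -0.110 to 0.084), Nipbl to -0.024 thinned to 40000 reads, and, with detection above 10 TPM, Stag2 to -0.077, Nipbl to -0.123 and Pds5b to -0.010. Medians over the members moved to 0.0020 for detection above 10 TPM (0.089 as reported), to 0.0097 for the correlation in cells with Ctcf above 0 (0.141) and to -0.181 for CV on linear TPM (-0.090). None of the turned differences in level or detection passed the limma test under any setting run; those within 1 experiment have no test. The cause was not tested.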
